A study of Homo sapiens with 4 samples.

Results

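The cytosolic ribosomal protein genes were followed through 4 sorted fractions of Huh7, an established human hepatocellular carcinoma line. Members were all genes whose symbol in the array's annotation is that of a protein of the small (RPS) or large (RPL, RPLP) subunit or of a close paralog. Pseudogenes and the RPS6K kinase genes were left out, and a gene needed a probe that carries its symbol alone. This gave 63 members, 22 of the small and 41 of the large subunit, out of 18377 genes measured in the same way. RefSeq holds 84 protein-coding genes with such symbols. The other 21 have no single-symbol probe here, among them RPLP0 and RPSA: 11 appear only on probes that list several genes and 10 on no annotated probe.

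The groups are CD133-positive and CD133-negative cells from one flow-cytometry sort, and ALDH-positive and ALDH-negative cells from another. CD133 is the surface protein encoded by PROM1, and ALDH is aldehyde dehydrogenase. The series sets the marker-positive cells, as cancer stem cells, against the rest. All 4 fractions come from the one line, no treatment is named, and each was read on 1 array, so no difference within a sort has a replicate check or a p-value.

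A ribosome is built from RNA and about as many proteins as there are genes of this kind, most of them present as 1 copy per particle. Their mRNAs are among the most abundant in dividing cells. Most begin with a cytosine and an unbroken stretch of pyrimidines, the terminal oligopyrimidine (TOP) start, through which the growth-sensing kinase mTORC1 and the binding protein LARP1 control their translation and stability. Many of these genes host small nucleolar RNAs (snoRNAs) in their introns and have numerous processed pseudogenes elsewhere in the genome. Single proteins of the ribosome also act outside it, as RPL5 and RPL11 do when they bind MDM2.

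RefSeq start sites (GRCh38.p14) show this shared feature, which played no part in choosing the members. A start was counted as TOP when the first transcribed base is C and at least 4 C or T bases follow it, on the transcript's strand. Of the 52 members in the RefSeq promoter table, 34 (65.4%) had one, against 4.04% of 27305 genes in the table. The windows of 30 bases below, 15 before and 15 from the annotated start, are shown for members whose values carry the comparisons. The capitals mark the C and its pyrimidine run. RPS13, RPL31, RPL12, RPL24, RPL22 and RPS9 have the TOP start:
RPS13 (chr11:17077653-17077682, minus strand): ttccactctcgctctCCTTTCgttgcctga
RPL31 (chr2:101002274-101002303, plus strand): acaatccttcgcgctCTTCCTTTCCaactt
RPL12 (chr9:127451392-127451421, minus strand): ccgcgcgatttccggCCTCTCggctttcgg
RPL24 (chr3:101686704-101686733, minus strand): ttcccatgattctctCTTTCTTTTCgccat
RPL22 (chr1:6199581-6199610, minus strand): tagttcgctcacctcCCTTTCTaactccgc
RPS9 (chr19:54200843-54200872, plus strand): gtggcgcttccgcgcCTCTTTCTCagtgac

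RPL11, RPL10A, RPL19 and the paralogs RPL7L1 and RPS27L have no such run at the annotated first base, and so no capitals:
RPL11 (chr1:23691764-23691793, plus strand): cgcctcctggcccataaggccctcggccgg
RPL10A (chr6:35468386-35468415, plus strand): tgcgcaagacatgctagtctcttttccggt
RPL19 (chr17:39200268-39200297, plus strand): tgggctctccccttcgcagataatgggagg
RPL7L1 (chr6:42879601-42879630, plus strand): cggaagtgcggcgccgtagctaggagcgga
RPS27L (chr15:63157463-63157492, minus strand): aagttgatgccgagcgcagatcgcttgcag

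In RPL10A a pyrimidine run begins a few bases further in. With the C allowed within 5 bases of the annotated start, 41 of the 52 members had a run, and so did 21.1% of all genes. The annotated start can differ from the start used in Huh7.

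The values are log2 expression values after robust multi-array averaging (RMA), on which a difference of 1 is 2-fold. The array medians lay between 4.92 and 5.04. Of the hepatocyte markers examined, 7 of 7 with a probe, albumin and alpha-fetoprotein among them, lay above the expression floor of 4.98 on all arrays, the floor being the median of all values. Of 4 leukocyte markers, PTPRC and CD3E lay below it on all arrays and CD14 and LYZ above. Of 5 fibroblast and endothelial markers, COL1A1 and PDGFRB lay above the floor on all arrays, PECAM1 and CDH5 on 1 each and VWF on none. PROM1 was at 8.9997 and 5.32 in the positive and negative fractions of the CD133 sort, and at 7.11 and 8.39 in those of the ALDH sort.

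Ribosomal protein genes differed little between the fractions of either sort. All members but RPL10L, a testis-type paralog of RPL10 at 4.10 to 4.78, lay above the floor, which leaves 62. RPL26L1 did so only on a probe that lies away from its gene. None of the 62 reached 2-fold in either sort, where 0.164% of 11591 genes were 2-fold lower and 0.716% 2-fold higher in CD133-positive cells, and 1.3% and 0.278% of 11879 genes in ALDH-positive cells. This holds for the brightest probe of each gene: on a dimmer probe that lies at its gene, RPL12 was 2.33-fold lower in ALDH-positive cells. The range of a member over its 4 arrays had a median of 0.38 and ran from 0.11 in RPL12, on its brightest probe, to 0.93 in RPS27L, beside a median of 0.45 over 11293 genes. The highest array was CD133-negative for 31 members (36.4% of all genes), ALDH-positive for 11 (21.7%), and CD133-positive or ALDH-negative for 10 each (17.6% and 24.2%). The lowest was ALDH-negative for 24 (29.6%), ALDH-positive for 21 (33.4%), CD133-positive for 9 (17.1%) and CD133-negative for 8 (19.9%).

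**Figure D1:**
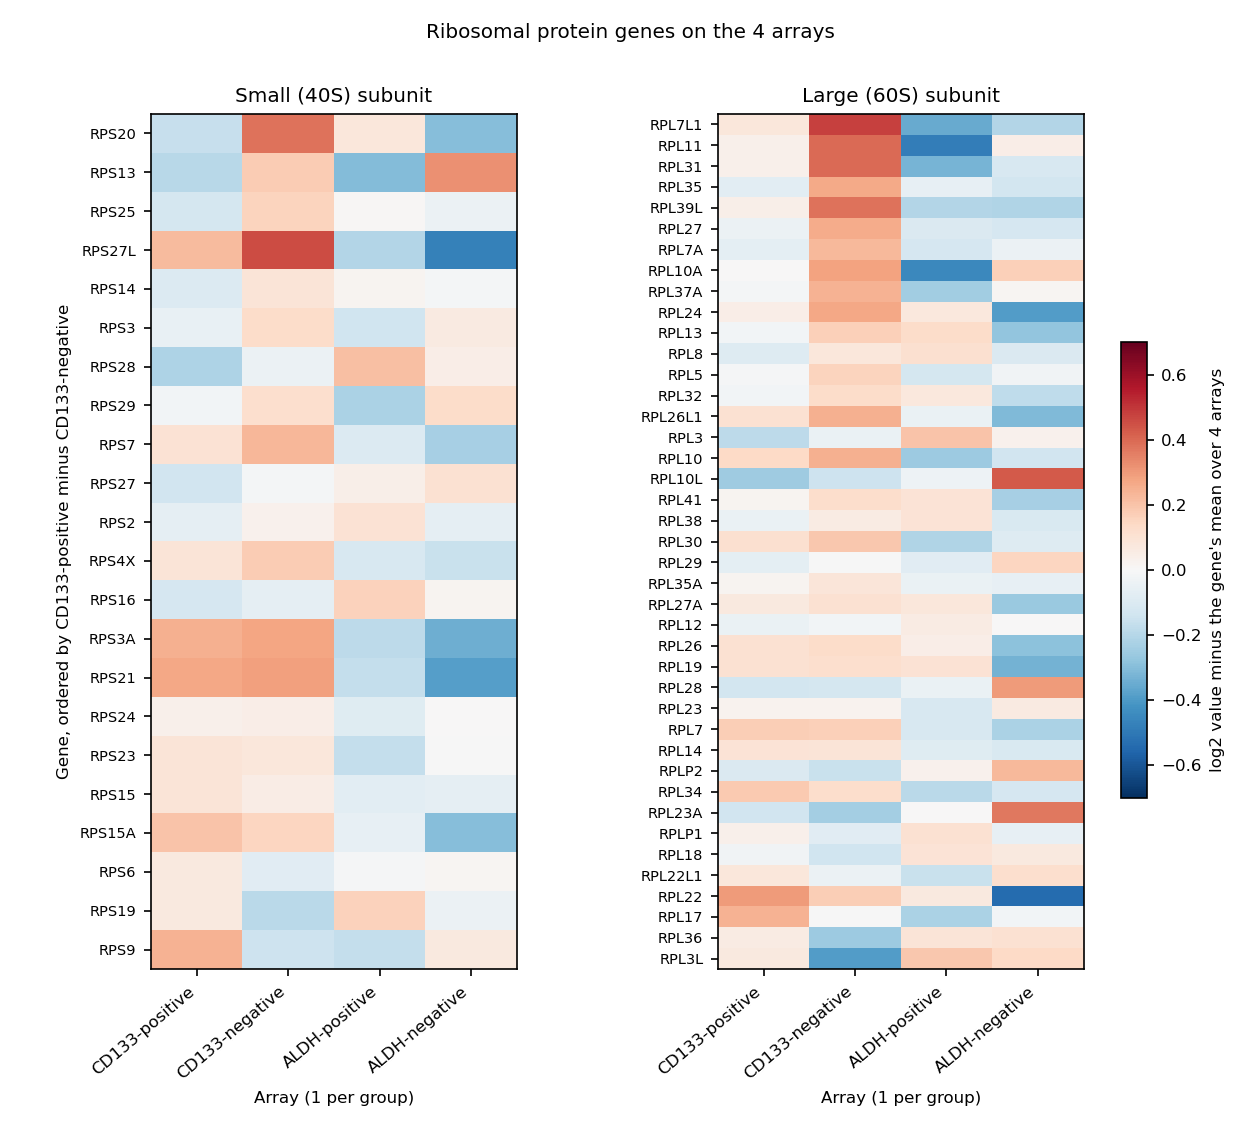
Colour gives each gene's log2 value minus its mean over the 4 arrays, with 1 array per group and genes ordered within each subunit by their CD133 difference. Of the 62 members above the floor, 31 were highest on the CD133-negative array; RPL10L is drawn too.

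In the CD133 sort a majority of members was lower in the positive fraction. CD133-positive values were lower for 43 of 62 members and higher for 19, where 57.1% of 11591 genes were lower. The median difference, positive minus negative, was -0.08 over the members and -0.04 over all genes. Above the 75th percentile of all values 41 of 58 members were lower, where 62.7% of genes were, with medians of -0.09 and -0.07. At 1.2-fold 11 members were lower (17.1% of all genes) and 3 higher (12.9%), and none reached 1.5-fold (1.89% lower and 2.74% higher). With each sort centred on the median of all genes 35 of 62 members were lower (50% of genes), and after a second quantile normalization 34 of 62 (52.3%).

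The subunits gave like values. Of 22 small subunit genes 16 were lower in CD133-positive cells (median -0.09), and of 40 large subunit genes 27, with a median of -0.07. RPS20, a protein of the head of the small subunit, lay lowest. Its values were 6.85 and 7.39 in the CD133 sort and 7.09 and 6.71 in the ALDH sort, the positive fraction first, so the CD133-negative array stood highest and the ALDH-negative array lowest. That is 1.46-fold lower in CD133-positive cells and 1.30-fold higher in ALDH-positive cells.

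RPL7L1, a nucleolar paralog of RPL7, was at 7.63, 8.03, 7.21 and 7.35 in the same order, which all sets of 4 values follow, a CD133 difference of -0.40. RPL31, on the rim of the tunnel through which the growing chain leaves, was at 8.16, 8.52, 7.80 and 8.01, a difference of -0.36. Both had their highest value on the CD133-negative array and lay lower on both ALDH-sort arrays than on either CD133-sort array.

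At the other end stood RPL3L, the paralog of RPL3 known from heart and skeletal muscle, at 5.94, 5.48, 6.06 and 6.01. Its CD133 difference of 0.46 came from the CD133-negative array, the lowest of the 4. RPS9, which binds early in small subunit assembly, was at 8.12, 7.73, 7.71 and 7.94, and so 1.31-fold higher in CD133-positive cells. RPL36, of the large subunit, was at 7.78 and 7.46 in the CD133 sort and at 7.81 and 7.82 in the ALDH sort. RPS19, the gene most often mutated in Diamond-Blackfan anaemia, was at 8.03, 7.77, 8.12 and 7.92, higher in the positive fraction of both sorts by 0.26 and 0.20. RPL17, on the tunnel rim, differed by 0.25 in the CD133 sort and by -0.20 in the ALDH sort.

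In the ALDH sort members fell on both sides. ALDH-positive values were lower for 27 of 62 members and higher for 35, where 51.5% and 48.5% of 11879 genes were. The median was 0.03 over the members and -0.01 over all genes. At 1.2-fold 7 members were lower (24.1% of all genes) and 9 higher (20.1%), and at 1.5-fold 2 were lower (6.6%) and 1 higher (4.15%). Again the subunits were close, with medians of 0.04 over the small and 0.01 over the large subunit.

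RPS13, a small subunit protein whose introns hold snoRNAs of the SNORD14 family, was lowest in the ALDH sort. It was at 9.08, 9.44, 8.97 and 9.59, lower in the positive fraction each time, by 0.37 and 0.62 on the log2 scale. RPL10A, the protein of the mobile L1 stalk, was at 9.53, 9.80, 9.07 and 9.69, with differences of -0.28 and -0.62. RPL11, which joins RPL5 and 5S RNA in a particle that can bind MDM2, was at 8.25, 8.62, 7.74 and 8.27, with differences of -0.37 and -0.53. These were the 3 members at least 1.2-fold lower in both positive fractions, where 4.76% of 11293 genes were. In each of them both negative arrays lay above the positive array of the same sort, and the ALDH-positive array was the lowest.

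RPL22, a tunnel-rim protein that cells can do without, was highest in the ALDH sort. Its values of 6.62, 6.49, 6.39 and 5.78 set the ALDH-negative array apart, and the ALDH difference was 0.61. Its paralog RPL22L1, whose mRNA is known to be held down by RPL22, was at 5.81, 5.69, 5.58 and 5.85. In the ALDH sort the pair thus went in opposite directions, 1.53-fold higher for RPL22 and 1.21-fold lower for RPL22L1, and in the CD133 sort both were slightly higher, by 0.13 and 0.12.

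RPL24, which forms a bridge between the subunits, was at 10.86, 11.08, 10.89 and 10.43, and RPL19, another bridge protein on the tunnel rim, at 9.86, 9.87, 9.85 and 9.42. In both the ALDH-negative array was low and the other 3 close together, and the ALDH differences were 0.46 and 0.43. RPL13, of the large subunit, followed with 0.40, at 7.46 and 7.06 in that sort. Besides the 3 genes above, RPL23A, the docking protein of the signal recognition particle, and RPS29, a zinc-binding small subunit protein, completed the 5 lowest, with ALDH differences of -0.36 and -0.35.

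**Figure D2:**
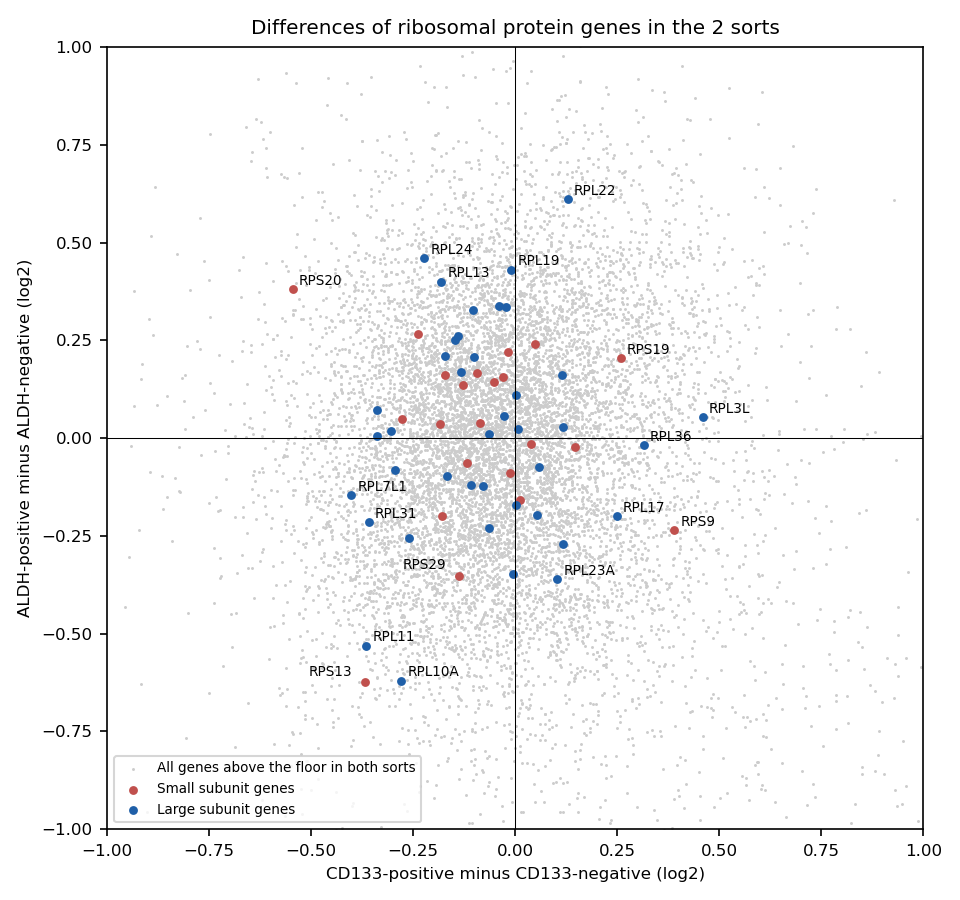
Each point is a gene, with the CD133 difference on the horizontal and the ALDH difference on the vertical axis, both positive minus negative in log2; grey points are genes above the floor in both sorts, of which some lie beyond the axes. The members spread around the origin without a slope, RPS20 lies at the upper left, and RPS13, RPL10A and RPL11 at the lower left.

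The differences in one sort did not follow those in the other. Across the 62 members Pearson's r between the differences was 0.07 and Spearman's rho 0.00, beside -0.12 and 0.02 over 11293 genes, given as a description, since genes read on the same arrays are not independent. Of the members 27 were lower in CD133-positive and higher in ALDH-positive cells (26.6% of 11293 genes), 11 went the opposite way (21.9%), 16 were lower in both positive fractions (30.4%) and 8 higher in both (21.1%). RPS20 was the only member at least 1.2-fold apart in opposite directions (2.93% of genes with its directions, 4.37% with the reverse), and no member was 1.2-fold higher in both (3.05%). Marker status over both sorts was also fitted with limma over the 4 arrays, the sort being a block. Its spread is how far the differences in the sorts disagree, so it is not a test of either sort. With 1 residual degree of freedom, 0 of 62 members and 0 of 12177 genes (0%) passed an adjusted p of 0.05, while 3 members and 4.86% of genes had an unadjusted p under it. RPS13, RPL11 and RPL10A were those 3. RPS13, lower in both sorts, had a mean difference of -0.50 with a moderated standard error of 0.18 and a limma adjusted p of 0.889.

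By role in the particle, the groups of members had medians close to 0 in the ALDH sort apart from the 5S particle. The shares to set beside the counts are the 57.1% of all genes lower in CD133-positive and the 51.5% lower in ALDH-positive cells. In the 5S particle both genes were lower in the positive fractions, RPL5 with differences of -0.17 and -0.10 on its brightest probe, which lies among genes of chromosome 15. The other probes of RPL5, at the gene and among genes of chromosome 22, gave 0.35 and 0.07 in the ALDH sort, so that its direction there turned with the probe. RPLP1 and RPLP2 form the acidic stalk that recruits the elongation factors. RPLP1 was at 9.80, 9.68, 9.87 and 9.71, higher in both positive fractions by 0.11 and 0.16, and RPLP2 at 9.001, 8.95, 9.13 and 9.33, with differences of 0.05 and -0.20. Of 7 measured genes on the tunnel rim 4 were lower in CD133-positive and 3 in ALDH-positive cells, with medians of -0.01 and 0.07; RPL31 (-0.36) and RPL35 (-0.34) differed most in the first and RPL22 and RPL19 in the second. Of 6 genes along the mRNA path and decoding centre, medians were -0.13 and 0.01. RPS14 (-0.18) and RPS3 (-0.18) differed most there in the CD133 sort, and RPS3 (-0.20) and RPS2 (0.17) in the ALDH sort. Of 14 measured genes mutated in Diamond-Blackfan anaemia, 12 were lower in CD133-positive and 6 in ALDH-positive cells, with medians of -0.13 and 0.01, and RPL11 differed most in both, followed by RPL31 in the CD133 sort and RPS29 in the ALDH sort.

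Paralogs and expressed copies went separate ways. Besides RPL7L1, RPL3L and RPL22L1, RPL39L, the paralog of RPL39 known from testis, was at 6.25, 6.59, 6.004 and 5.999, lower in CD133-positive cells by 0.34 and level in the ALDH sort. RPS27L, a paralog of RPS27 known as a p53 target, was at 6.81, 7.05, 6.39 and 6.12, with differences of -0.24 and 0.27. RPL26L1 was at 7.29, 7.43, 7.13 and 6.87 on its brighter probe, which lies among genes of chromosome 11. The probe at its gene, at 3.84 to 4.48, lay below the floor on every array. RPS4X, the X-linked gene of the RPS4 protein, was at 10.35, 10.43, 10.14 and 10.10, with differences of -0.09 and 0.04. Paralogs share sequence with their parent genes, so that a probe of one can read the other.

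Of the 52 members in the RefSeq promoter table, those with and without a TOP start differed in their CD133 medians. The groups were close in the ALDH sort. In the CD133 sort the 34 with a TOP start had a median of -0.03, with 22 lower (64.7%), and the 17 without one above the floor had -0.14, with 15 lower (88.2%), where 57.1% of all genes were lower. In the ALDH sort the medians were 0.02 and 0.04, with 16 (47.1%) and 7 (41.2%) lower, where 51.5% of all genes were. Members absent from the promoter table are in neither group, among them RPS20 (-0.55) and RPL3L (0.46), the lowest and highest in the CD133 sort. The groups follow the annotated first base only, so RPL10A and the paralogs RPL7L1 and RPS27L count as without a TOP start. They were not formed again with the C allowed within 5 bases. The difference between these groups of members was not tested.

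The arrays of the 2 sorts also differed from each other. Both CD133-sort arrays lay above both ALDH-sort arrays in 25 of 62 members (31.1% of 11293 genes), and both ALDH-sort arrays above in 11 (14%). RPS27L differed most, by 0.68 between the means of the pairs, followed by RPS21 and RPL7L1, each by 0.56, and RPS3A by 0.53. RPS3A, which binds near the mRNA exit, was at 10.83 and 10.86 in the CD133 sort and at 10.39 and 10.24 in the ALDH sort, and all 5 of its probes kept the pairs apart. RPS21 was at 7.22 and 7.24 against 6.79 and 6.57. RPL23A went the other way, at 8.52 and 8.42 against 8.66 and 9.02. The upper end of all values was also higher in the CD133 sort, with the 99th percentile at 10.02 and 10.03 against 9.84 on both ALDH-sort arrays. After a second quantile normalization, which removes such a shift, the counts were 16 members (23.2% of genes) and 17 (19.8%). Sort and any difference between the experiments cannot be told apart.

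**Figure D3:**
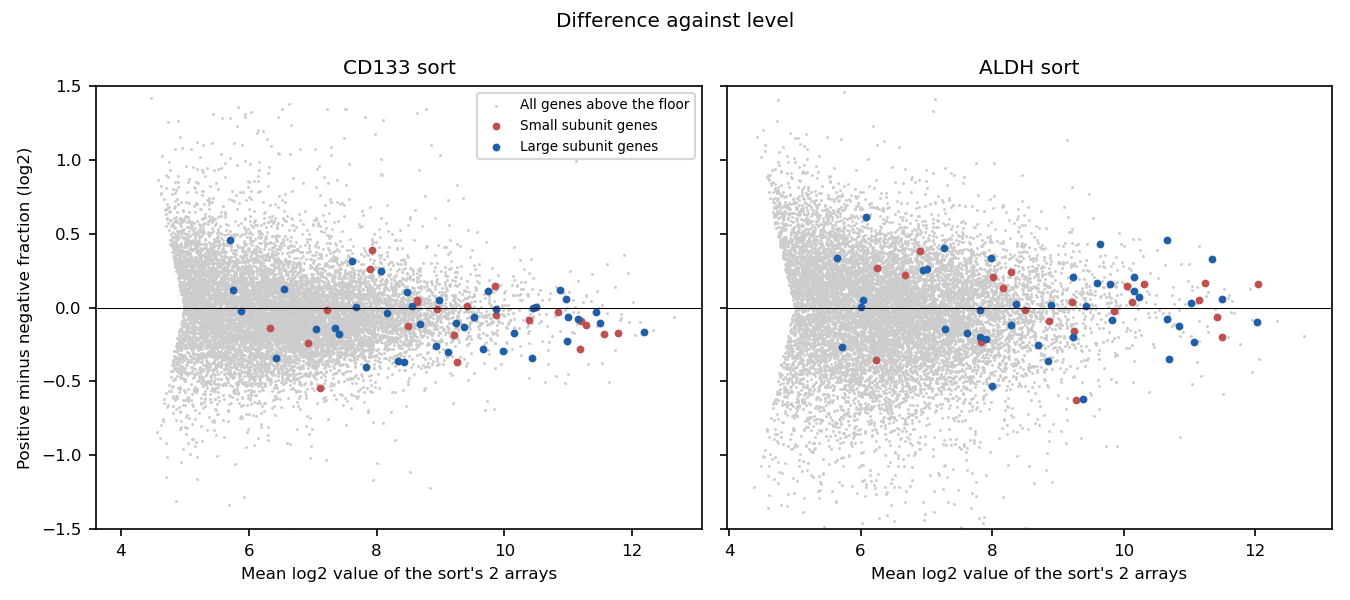
The difference of each gene, positive minus negative in log2, is plotted against the mean log2 value of that sort's 2 arrays; grey points are all genes above the floor, those beyond 1.5 not drawn, and coloured points the members by subunit. Members sit along the bright part of the range, and the spread of all genes narrows towards bright values.

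Probes of the same gene did not always give the same answer. The members had 91 single-symbol probes, and 18 members had more than 1. The range between probes of a gene had a median of 0.10 in the CD133 and 0.28 in the ALDH sort, and their signs disagreed in 4 and 7 of the 18 genes. Probe numbers on this array follow the genome, so the genes of the neighbouring probe numbers show where a probe lies. By this measure 27 of 90 placed probes of members (30%) lay away from the gene they are named for, 23 of them on another chromosome, against 1.47% of 18815 probes of other genes. Among the 62 placed probes that supplied members' values, 12 were of this kind, including those of RPL5, RPL12, RPL26L1, RPL34, RPS2, RPS27 and RPS28.

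RPL12, the protein at the base of the stalk, shows how much this can matter. Its brightest probe, whose neighbours are genes of chromosome 20, was at 11.43, 11.45, 11.53 and 11.48, nearly level. The probe among the neighbours of the RPL12 gene on chromosome 9 was at 6.11, 6.73, 5.77 and 6.99. On that probe both positive arrays lay below both negative arrays, with differences of -0.63 and -1.22, and it was the only one of the 91 to reach 2-fold in a sort. By their brightest probes 4.76% of 11293 genes were at least 1.2-fold lower in both positive fractions. With the probe among the gene's neighbours used for every member that has one, 6 of 58 members were at least 1.2-fold lower in both positive fractions: RPL10A, RPL11, RPS13, RPL12, RPL29 (-0.49 and -0.29) and RPL34 (-0.50 and -0.27). The last 3 are dimmer on these probes than on those used above. Over all 58 the medians stayed at -0.08 and 0.02. This choice of probe was made after the values were seen.

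Other genes with probes that disagreed in sign were RPL26L1, whose second probe (-0.02 and -0.64) lay below the floor on every array, RPL27A (0.34 and -0.52 in the ALDH sort, both probes at the gene), RPL5, RPL7, RPL34, RPL41, RPS3A, RPS7 and RPS15. For RPL5 the probe at the gene gave -0.10 and 0.35, against -0.17 and -0.10 on the brightest one. For RPL41 2 probes held identical values. Of RPL7's 3 probes one gave -0.36 and -0.26, the others between -0.10 and 0.20. The part of pseudogene transcripts in these values was not tested.

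**Figure D4:**
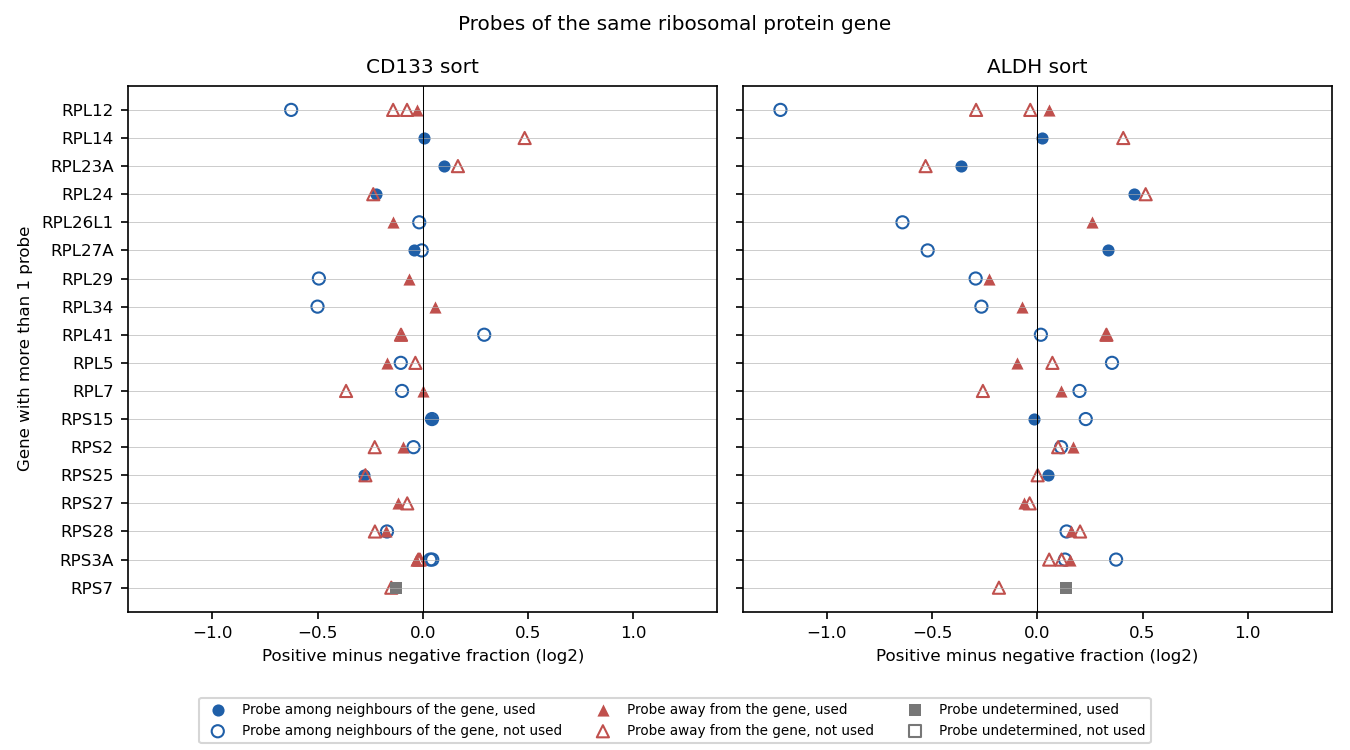
Each point is a probe of a member with more than 1 probe, with the difference, positive minus negative in log2, on the horizontal axis; circles lie among the neighbours of the gene, triangles away from it, and filled points are the probes used. The open circle of RPL12 stands apart from its 3 other probes in both panels.

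The snoRNAs within these genes were lower in CD133-positive cells almost without exception. Of 60 snoRNA genes that RefSeq places inside ribosomal protein genes, 29 were measured above the floor in the CD133 sort, and 28 of them were lower, with a median of -0.19. Other snoRNA genes did much the same, with 48 of 55 lower and a median of -0.24, and all genes were lower in 57.1%. In the ALDH sort 18 of 28 were lower, with a median of -0.19, and 39 of 56 other snoRNA genes, where 51.5% of all genes were. Hosts were closer to 0, with 15 of 19 hosting members lower in CD133-positive cells at a median of -0.09. SNORD58A, in an intron of RPL17, was at 5.21, 5.84, 4.45 and 5.62, so -0.63 and -1.18 where its host gave 0.25 and -0.20. The ALDH-positive value of SNORD58A lay below the floor, and it entered that sort's counts through the ALDH-negative array only. Its difference of -1.18 thus rests in part on a value below the floor. SNORD54, in RPS20, was lower in both positive fractions, with differences of -0.52 and -0.38, where its host went both ways. Both were named after their values were seen.

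Genes that make, load or regulate ribosomes were mostly lower in CD133-positive cells, by small amounts, where 57.1% of all genes were lower, and 62.7% of those above the 75th percentile of all values. In ALDH-positive cells 51.5% of all genes were lower. Of 51 ribosome biogenesis factors above the floor 44 were lower in CD133-positive cells (median -0.15). At 1.2-fold 14 were lower in that sort (17.1% of all genes). SBDS, which releases the factor EIF6 from new large subunits, went furthest and the other way, at 7.82 against 6.96 (0.86), followed by LTV1 (-0.59) and NOB1 (-0.56), both of late small subunit maturation. In the ALDH sort 29 of 50 were lower, with a median of -0.03, and NPM1 (0.74), DKC1 (0.71), the pseudouridine synthase, and SDAD1 (-0.69) differed most. Of 14 genes of RNA polymerase I and its factors 12 were lower in CD133-positive cells (median -0.25), led by POLR1E (-0.45), TAF1C (-0.38) and POLR1C (-0.34). In the ALDH sort 8 of 11 were lower, with a median of -0.14, led by POLR1F (-0.67), TAF1D (-0.66) and POLR1D (-0.47).

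Of 31 initiation factors 26 were lower in CD133-positive cells (median -0.11), led by EIF3F (-0.41), EIF5B (-0.33) and EIF3J (-0.25), and 13 of 30 in ALDH-positive cells (median 0.03), where EIF5 (-0.61), EIF2S3 (-0.36) and EIF3I (0.29) differed most. Elongation factors lay near 0, with medians of -0.02 and 0.03 over 7 genes, though EEF1A2, a form known from muscle and nerve, was higher in both positive fractions, by 0.28 and 0.58. EEF1G (-0.16 and 0.18) and EEF1A1 (-0.10) or TUFM (0.14) came next. Other mRNAs known for TOP starts had medians of -0.08 and 0.04 over 12 genes; EIF3F, BTF3 (-0.40) and the snoRNA host EPB41L4A-AS1 (-0.38) differed most in the CD133 sort, and NPM1, HNRNPA1 (-0.39) and EPB41L4A-AS1 (-0.37) in the ALDH sort. FAU, a fusion gene that encodes a small subunit protein outside the symbol rule, was lower by 0.32 in both.

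Among 17 genes of mTORC1, LARP1 and MYC, 12 were lower in CD133-positive and 10 in ALDH-positive cells, with medians of -0.07 and -0.04. MYCN was at 5.99, 6.52, 6.34 and 5.66, lower in CD133-positive (-0.53) and higher in ALDH-positive cells (0.68). MYC, which drives ribosomal protein transcription, was lower in both positive fractions, with differences of -0.24 and -0.43. TSC1 (-0.31) and MXD4 (0.30) in the CD133 sort and EIF4EBP1 (-0.29) in the ALDH sort completed the largest 3. Of 11 importins and chaperones of ribosomal proteins 10 were lower in CD133-positive cells (median -0.19), led by BCCIP (-0.46), BTF3 and TNPO1 (-0.35), and IPO5 (0.45), BTF3 (-0.36) and IPO7 (-0.28) differed most in the ALDH sort. Mitochondrial ribosomal proteins, encoded by a separate set of genes and added after the values were seen, were lower in CD133-positive cells in 54 of 72 genes, with a median of -0.10, and in 37 of 71 in ALDH-positive cells (median -0.02). Between -0.25 and -0.02 in the CD133 sort, the medians of these lists thus surround the -0.08 of the cytosolic ribosomal protein genes.

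The genes whose 4 values lay closest to the mean profile of the members, after centring each gene on its own mean, were MMS19, TMEM38A, ZFP36L2, TEAD4 and SPRYD7. The mean profile was 0.03, 0.10, -0.06 and -0.07, and MMS19 lay at a distance of 0.0061 in log2 units over the 4 arrays.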

How the data were processed

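Per the labels' protocols, 4 sorted Huh7 fractions gave total RNA (Trizol extraction, biotin label) for Affymetrix arrays. What the authors deposited is RMA output, per the submitters' processing notes, taken as log2 because it spans 0.556 to 13.5. Software, version and genome build are not given in the sources used here. RMA usually gives arrays one distribution, but the 4 deposited columns do not share one (SD 2.01 to 2.10), so that a further step may have followed; it is not given in the sources used here. Such scaling can hide part of a change common to most genes.

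Of 28869 probes, 19310 carry 1 gene symbol in the platform annotation and 1752 several. A gene's value is that of its single-symbol probe with the highest mean. A gene entered a sort's counts where the brighter array reached the floor. Differences are positive minus negative, with no test, since each group has 1 array. The number of arrays limits the precision. Counts were made at 1.2-fold, 1.5-fold and 2-fold. Marker status over both sorts was fitted with limma (lmFit, eBayes, Benjamini-Hochberg over all genes), tested on simulated data. Nothing states that fractions came from separate cultures, so its p-values measure only the spread between these arrays. With the sort as a block, a gene's own spread is how far its differences in the pair of sorts disagree, moderated over all genes. The fit is thus not a test of either sort. A probe was placed by the RefSeq positions of the 10 single-symbol probe numbers on each side, 80% of which had to share a chromosome, and counted as at its gene within 5 Mb. TOP starts were read from RefSeq promoters of 250 bases before to 50 after the start.

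Named were, for each sort, the 5 lowest and the 5 highest members by difference. Also named were stalk and 5S particle genes, paralogs, members 1.2-fold different the same way in both sorts and members with disagreeing probes. Of each role group the 2 largest differences per sort were named, and of each related list the 3 largest. From the mitochondrial ribosomal protein list no gene was named. A list of ribosomal protein pseudogenes was also counted and is not reported here. Members and lists were chosen with earlier results of these data known. Alternatives were other probe rules, centring, a second quantile normalization, loess (span 0.4), other floors, fewer members and other limma settings. Python 3.11.15, R 4.3.3, limma 3.58.1 and matplotlib 3.10.9 were used.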

Additional observations from a re-analysis of the deposited data

Results flagged for a closer look

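RPS20 differed in opposite directions in the pair of sorts by at least 1.2-fold each time: -0.55 for CD133-positive minus CD133-negative and 0.38 for ALDH-positive minus ALDH-negative. Of 11293 genes 2.93% did so in these directions and 4.37% in the reverse ones, so such a gene is not rare here. Each value rests on 1 array per fraction, and the difference between the sorts was not tested.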

How the results depend on the processing

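Of the 82 recalculated counts and medians that answer a comparison, 80 stayed within 1.5 times the count, or within 0.1 of the median, with its sign. The other 2 came from the second quantile normalization, where both CD133-sort arrays lay above both ALDH-sort arrays in 16 members in place of 25, and the reverse held in 17 in place of 11. The margin of 0.1 is wider than the medians of -0.08 and 0.03 themselves, so staying within it does not show them stable. Also within the margin for counts were 34 of 62 members lower in CD133-positive cells (52.3% of genes), in place of 43 (57.1%). The counts of members passing limma are among the 80. The number of members passing limma was 0 with the block, without it (2 residual degrees of freedom), and with an intensity trend and a robust prior. It did not change in the leave-one-out fits, which were made without the block and had 1 residual degree of freedom each. Genes passing numbered 80 without the CD133-negative array and 38 without the ALDH-negative array, in place of 0. Each leave-one-out fit leaves 1 array in a group, so no count of members by unadjusted p-value is read from it. Members lower in CD133-positive cells ran from 34 of 62 (second quantile normalization, 52.3% of genes) to 44 of 63 (no floor, 50.9% of genes). Their median ran from -0.02 (second quantile normalization) to -0.10 (lowest-mean probe), beside -0.01 and -0.04 over all genes. Members at least 1.2-fold lower in both positive fractions numbered 6 of 60 with the lowest-mean probe and 6 of 58 with the probe at the gene, in place of 3 of 62. By their brightest probes 4.76% of genes were, and the share by the lowest-mean probe was not counted. RPL23A in the ALDH sort moved to -0.53 on its lowest-mean probe. The block for the sort pairs the positive and negative fraction of each sort; the labels give no replicate numbers for any other pairing.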
